A study of Caenorhabditis elegans with 6 samples.

Results

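The genes described here are irg-1, irg-2, zip-2, cebp-1 and cebp-2 of the nematode Caenorhabditis elegans, 5 of the 46778 genes in the deposited table. They were chosen by name, as the genes whose WormBase identifiers carry these symbols, and all 5 identifiers were found. The choice uses no threshold on a measured value, but the set was proposed with results of these data known, so its fold changes are given as a description taken from a fit over the whole table. The series holds 6 RNA-seq libraries of worm RNA, 3 of a Control group and 3 of a group given HLB01, an agent known here by its code name alone. Its title concerns anti-ageing effects of Vicatia thibetica, a plant whose root was extracted. Titles call the treated libraries replicates 1 to 3 of HLB01, which was followed here, although under agent the labels list HLB01, HLB02 and HLB03 in turn. The strain, stage, dose and duration are not given in the sources used here. Whether replicates came from separate cultures is not stated, so the p-values reflect the spread among these libraries, which may be technical.

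The worm detects some pathogens by the damage they do, and a block of protein synthesis is among the signals it reads. ZIP-2 is a transcription factor of the bZIP family, and small open reading frames in the leader of its mRNA let more of the protein be made when translation is impaired. ZIP-2 then switches on irg-1 (infection response gene 1) in the intestine, as it does in infection by Pseudomonas aeruginosa or on exposure to the bacterial toxin exotoxin A. CEBP-2 is a small bZIP protein needed with ZIP-2 for that response, and CEBP-1, a further bZIP protein, is best known for its part downstream of the kinase DLK-1 in nerve regrowth.

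The members lie on 4 chromosomes (WBcel235, Ensembl release 115), and all encode proteins. The gene irg-1 (WBGene00015574) lies on the plus strand of chromosome V from 3523587 to 3524679, with 4 exons and a coding sequence of 636 bp without the stop codon. On the same chromosome and strand, irg-2 (WBGene00016783) runs from 4042181 to 4043601, also with 4 exons. The gene zip-2 (WBGene00019327) spans chromosome III from 832982 to 835814 on the plus strand and has 3 annotated transcripts, which share a coding sequence of 924 bp and differ in a 5′ untranslated region of 155 to 322 bp. That region is 7 bp in irg-1, 223 bp in irg-2, 10 bp in cebp-1 and 2 bp in cebp-2. The gene cebp-1 (WBGene00016997) lies on the minus strand of chromosome X from 1452695 to 1453868, and cebp-2 (WBGene00016754), the shortest of the 5 at 503 bp, on the plus strand of chromosome I from 6253082 to 6253584.

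**Figure D1:**
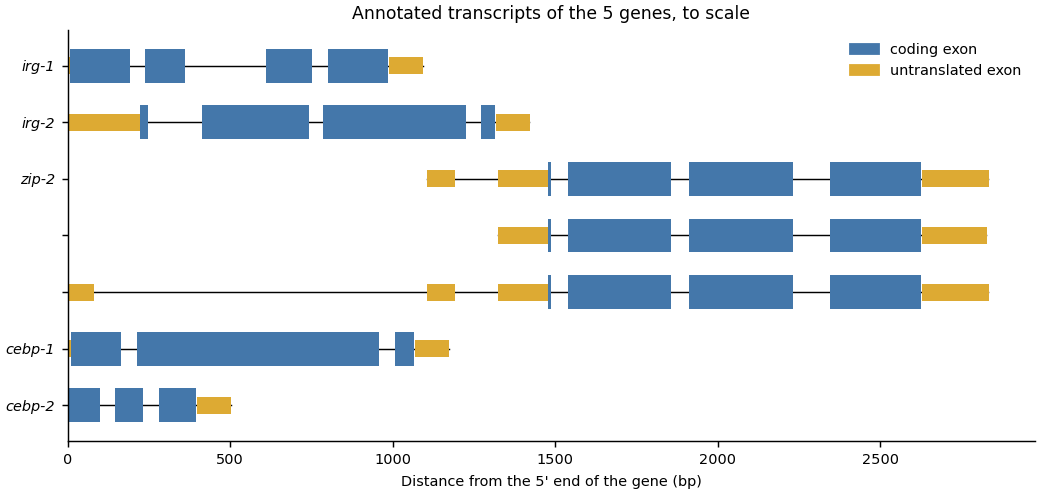
Annotated transcripts of the 5 genes, to scale, against the distance in bp from the 5′ end of each gene; wide blocks are coding exons, narrow blocks untranslated exons and lines introns. The 3 transcripts of zip-2 differ in their untranslated first exons, with 155 to 322 bp of untranslated sequence before the same coding sequence.

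Expression was given in TPM, a share of each library scaled for transcript length and to a fixed total, in columns that sum to between 996559 and 997388. The depth behind the values is unknown, so no counting interval is given. All 5 members passed the filter of at least 1 TPM in at least 3 libraries, as did 12590 genes in all, and all 5 were above 1 TPM in each of the 6 libraries. Over the 12590 genes, the correlation of log2(TPM + 1) was 0.984 to 0.988 for libraries of the same group and 0.980 to 0.988 for libraries of different groups. On the first principal component the score of HLB01 replicate 3 was 32.01, far from the -15.29 to -0.57 of the rest. Results without it are given beside those of the members.

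The response gene irg-1 was lower in HLB01 animals, and it was the only member to pass the test over all genes. Its level was 41.43, 42.37 and 44.47 TPM in Control replicates 1 to 3 and 25.28, 26.03 and 27.50 TPM in HLB01 replicates 1 to 3. Every HLB01 library lay below every Control library, with a gap between the groups wider than the range within either. The mean fell from 42.8 ± 1.56 to 26.3 ± 1.13 TPM (SD, n = 3 each), 1.63-fold lower. On the log2(TPM + 1) scale, which slightly understates the difference, the fold change was -0.68 ± 0.06 (SE; 95% confidence interval -0.82 to -0.55; limma adjusted p = 0.00614 over the 12590 genes). By p-value irg-1 was in place 11 of 12590. Of all tested genes 0.397% changed at an adjusted p below 0.05, 21 higher and 29 lower, so that 0.230% passed in the direction of irg-1. The fold change was -0.71 without HLB01 replicate 3 (limma adjusted p = 0.0139). In bulk RNA, fewer cells of a type and less RNA per cell cannot be told apart.

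The companion gene irg-2, which encodes a protein of unknown function also induced by infection, did not pass. Its level was 27.39, 23.09 and 23.38 TPM in Control replicates 1 to 3 and 27.26, 26.40 and 22.17 TPM in HLB01 replicates 1 to 3. The groups overlapped, with the highest value in Control replicate 1 and the lowest in HLB01 replicate 3. The means were 24.6 ± 2.40 and 25.3 ± 2.72 TPM (SD, n = 3 each), which in limma gave a log2 fold change of 0.04 ± 0.10 (SE), a 95% interval from -0.20 to 0.27 and an adjusted p of 0.955. Without HLB01 replicate 3 the log2 fold change was 0.12. The sign of this small value was not stable: leaving out Control replicate 2 gave -0.01 and leaving out HLB01 replicate 1 gave -0.02.

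The transcription factor gene zip-2 had the highest level of the 5, in place 333 of the 12590 tested genes by mean TPM. It stood at 410.48, 389.62 and 386.54 TPM in Control replicates 1 to 3 and at 364.37, 383.06 and 401.18 TPM in HLB01 replicates 1 to 3. The highest of the 6 values was in Control replicate 1 and the lowest in HLB01 replicate 1, and the groups overlapped. The means were 396 ± 13.02 and 383 ± 18.4 TPM (SD, n = 3 each), which in limma gave a log2 fold change of -0.05 ± 0.05 (SE), a 95% interval from -0.16 to 0.06 and an adjusted p of 0.848. Without HLB01 replicate 3 the log2 fold change was -0.08. The mRNA level says nothing of how much ZIP-2 protein was made. Its span is overlapped by 3 other annotated genes: linc-37 on the same strand, with group means of 8.997 and 6.22 TPM (Control, then HLB01), the small nucleolar RNA gene K02F3.15, also on the same strand, with a Control mean of 2.66 TPM that comes from replicate 1 alone and a value of 0 in the other libraries, and dos-3 on the opposite strand, with group means of 0.0833 and 0.173 TPM. With no strand setting stated, reads of such overlapping genes may not have been told apart.

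Neither of the other bZIP genes passed. The level of cebp-1 was 70.04, 68.93 and 68.81 TPM in Control replicates 1 to 3 and 64.89, 67.24 and 62.39 TPM in HLB01 replicates 1 to 3. The groups did not overlap, but the gap between them was narrower than the range within HLB01. The means were 69.3 ± 0.678 and 64.8 ± 2.43 TPM (SD, n = 3 each), which in limma gave a log2 fold change of -0.09 ± 0.04 (SE), a 95% interval from -0.20 to 0.01 and an adjusted p of 0.649. Without HLB01 replicate 3 the log2 fold change was -0.07. The groups did not overlap for 2 of the 5 members, irg-1 and cebp-1, both lower in HLB01, against 13.8% of all tested genes in either direction and 6.99% in the lower direction.

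The level of cebp-2 was 65.25, 61.51 and 82.02 TPM in Control replicates 1 to 3 and 69.64, 73.96 and 83.03 TPM in HLB01 replicates 1 to 3. Replicate 3 was the highest of each group, and the groups overlapped. The means were 69.6 ± 10.9 and 75.5 ± 6.83 TPM (SD, n = 3 each), which in limma gave a log2 fold change of 0.12 ± 0.11 (SE), a 95% interval from -0.15 to 0.39 and an adjusted p of 0.836. Without HLB01 replicate 3 the log2 fold change was 0.05. Leaving out Control replicate 3 gave 0.25 and leaving out Control replicate 2 gave 0.04, so that single libraries move it by more than 1.5 times, with no call in either case. In Control its coefficient of variation, 15.7%, was the highest of the 5, against 3.64% for irg-1 and 0.979% for cebp-1. In HLB01 that of irg-2 was higher, at 10.8% against 9.05% for cebp-2.

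**Figure D2:**
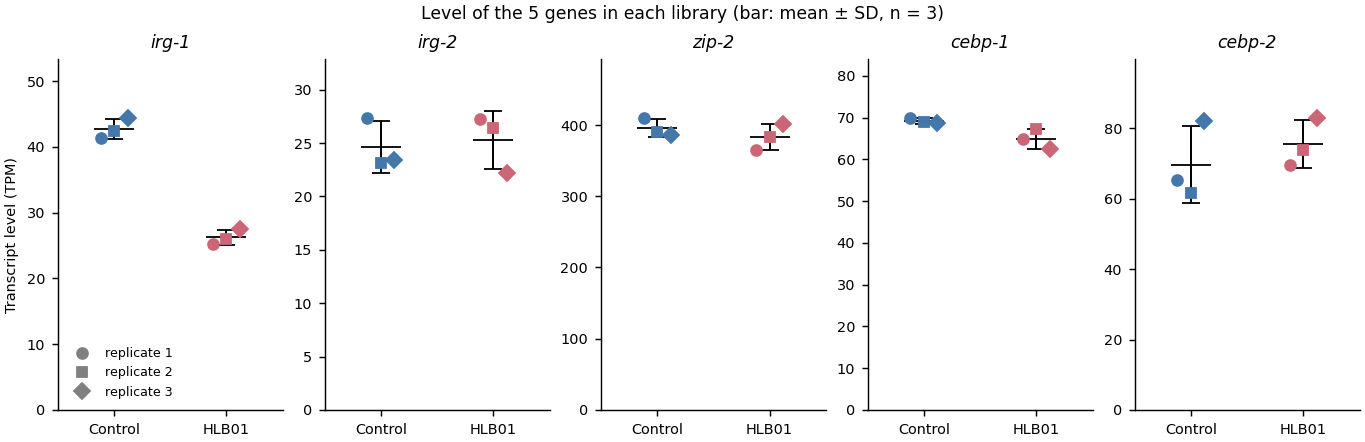
Level in TPM (each axis from 0) of the 5 genes in the Control and HLB01 libraries; each symbol is a library, and the bars give the mean ± SD of 3. For irg-1 the HLB01 libraries lie at 25.28 to 27.50 TPM, below the Control libraries at 41.43 to 44.47 TPM, and the groups overlap for irg-2, zip-2 and cebp-2.

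The order of the levels was zip-2, then cebp-2 and cebp-1, then irg-1 and irg-2. In both groups zip-2 was above all 4 others in every library. The values of cebp-1 and cebp-2 overlapped in the Control libraries, whereas in the HLB01 libraries cebp-2 was the higher in each. In Control, irg-1 was above irg-2 in each library, and the lowest irg-1 value, 41.43 TPM, was above the highest irg-2 value, 27.39 TPM. In HLB01 their ranges overlapped, and irg-2 was the higher of the pair in replicates 1 and 2.

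**Figure D3:**
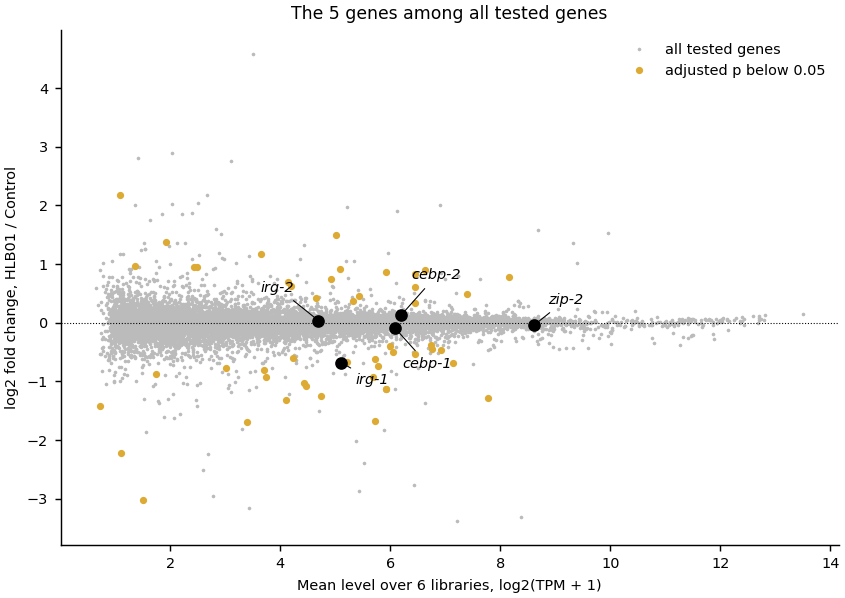
Log2 fold change (HLB01 over Control) against the mean log2(TPM + 1) of the 6 libraries for the 12590 tested genes; larger coloured points are the 50 genes with an adjusted p below 0.05, and black points the 5 genes described here. The point of irg-1 lies at -0.68, below the bulk of genes of like level, and the other 4 lie between -0.09 and 0.12.

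Within each library, irg-1 was set against each of the other members, which removes whatever scales all of them alike. Relative to zip-2, irg-1 was at -3.18 ± 0.09 in Control and -3.81 ± 0.02 in HLB01 (difference in log2(TPM + 1), mean ± SD, n = 3 each), a shift of -0.63. Relative to irg-2 it went from 0.78 ± 0.17 to 0.06 ± 0.21, a shift of -0.72. The shifts relative to cebp-1 and cebp-2 were -0.59 and -0.81. For all 4 pairs every HLB01 library lay below every Control library. Each gave p = 0.1 in a two-sided exact permutation test over the libraries, the smallest p that 3 against 3 allows, and 0.1 after Benjamini-Hochberg adjustment over the 4 pairs. This permutation test therefore cannot reach 0.05 with 3 libraries a group. The 4 pairs share the same irg-1 values and were formed with its fall known. They restate that fall and give no separate support for it.

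**Figure D4:**
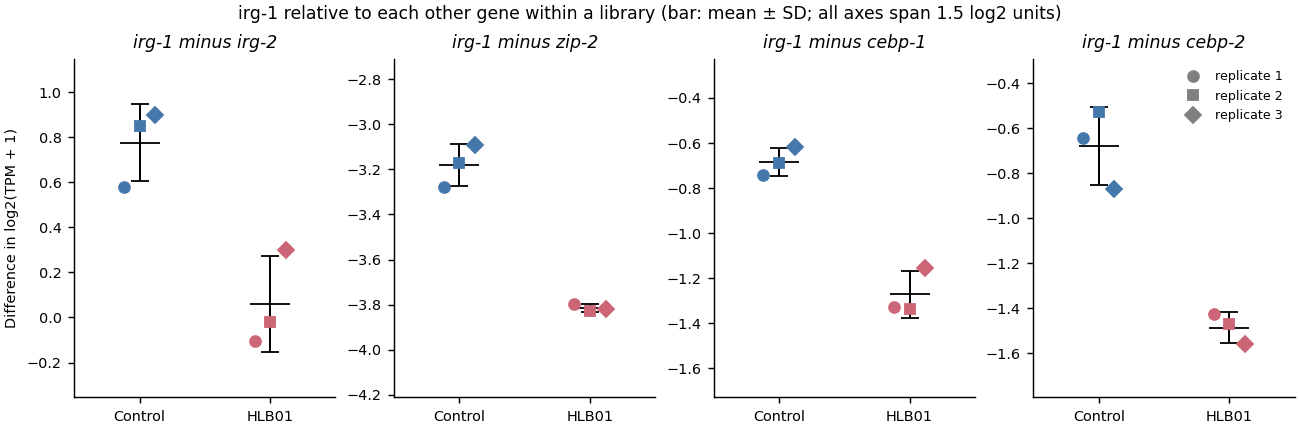
Difference in log2(TPM + 1) between irg-1 and each of the other 4 genes within a library, in Control and HLB01; each symbol is a library, bars are the mean ± SD of 3, and all axes span the same range. In each panel the HLB01 libraries lie below the Control libraries, by 0.59 to 0.81 on average.

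The 8 genes named as infection response genes, irg-1 to irg-8, were next compared, since irg-1 and irg-2 are among them. Of the 8 tested, 1 fell (irg-1), none rose and 7 did not pass. Over all tested genes 0.230% were called lower and 0.167% higher. Of the 8, 4 (irg-1 included) had an unadjusted p below 0.05 in limma, against 8.32% of all tested genes. A negative log2 fold change was found for 7 of the 8, with a median of -0.21 against -0.0038 over all tested genes, of which 6454 of 12590 were negative. The list holds irg-1 itself and was chosen with earlier results known. The member nearest to passing was irg-5 (chromosome V, 13737010 to 13738474), known as a target of the p38 kinase pathway, at 31.15, 34.15 and 30.30 TPM in Control and 25.23, 26.55 and 22.85 TPM in HLB01. Its groups did not overlap, and the log2 fold change was -0.35 ± 0.08 (SE; limma adjusted p = 0.188). The gene irg-8 was at 98.7 ± 9.55 and 77.2 ± 9.46 TPM (SD, n = 3 each; log2 fold change -0.35, adjusted p in limma = 0.350). Its groups overlapped by little, since the highest HLB01 value, 88.08 TPM in replicate 3, was just above the lowest Control value, 87.68 TPM in replicate 1.

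The gene irg-7, required for resistance to bacterial pathogens, was at 114 ± 9.53 and 95.7 ± 11.1 TPM (SD, n = 3 each; log2 fold change -0.26, adjusted p in limma = 0.527). The gene irg-3, with the highest level of the 8, was at 352 ± 26.8 and 340 ± 21.3 TPM (log2 fold change -0.05, adjusted p in limma = 0.886). Near the bottom of the tested range, irg-4, another p38 pathway target, was at 2.25 ± 0.388 and 1.91 ± 0.174 TPM and irg-6 at 1.57 ± 0.289 and 1.29 ± 0.287 TPM, with overlapping groups for both. Levels of the 8 thus ran from 1.05 TPM for irg-6 to 371.58 TPM for irg-3 in single libraries, with irg-1 and irg-5 in the middle of that range.

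Among the bZIP family, the family of ZIP-2 and the CEBP proteins, none of 25 tested genes passed, against 0.397% of all tested genes. Their log2 fold changes were positive for 9 and negative for 16 (median -0.03). Over all tested genes, 6454 of 12590 were negative. An unadjusted p below 0.05 was reached by 1 of the 25 in limma, against 8.32% of all tested genes. That gene was zip-11, reported to act in intestinal defence, at 13.8 ± 1.27 and 9.79 ± 1.05 TPM in Control and HLB01 (SD, n = 3 each; log2 fold change -0.45 ± 0.10, SE; adjusted p in limma = 0.204). Its groups did not overlap. The next smallest p was that of zip-4, at 97.7 ± 4.83 and 106 ± 4.04 TPM (SD, n = 3 each; limma adjusted p = 0.612).

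The bZIP factors of neighbouring stress pathways had log2 fold changes between -0.07 and 0.13. The log2 fold change was 0.02 ± 0.05 for atf-7, which acts downstream of the p38 kinase in immunity, and -0.04 ± 0.05 for skn-1 of the oxidative stress response. It was 0.04 ± 0.06 for atfs-1 of the mitochondrial stress response and -0.07 ± 0.04 for xbp-1 of the endoplasmic reticulum stress response. For zip-1 of the response to intracellular pathogens it was 0.13 ± 0.08 (all SE). The groups did not overlap for zip-1, as for 13.8% of all tested genes, and overlapped for the others named here. Their limma adjusted p-values ran from 0.720 to 0.940. The genes zip-6, atf-8 and sknr-1 were below the filter, and the name atf-5 matched no symbol.

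**Figure D5:**
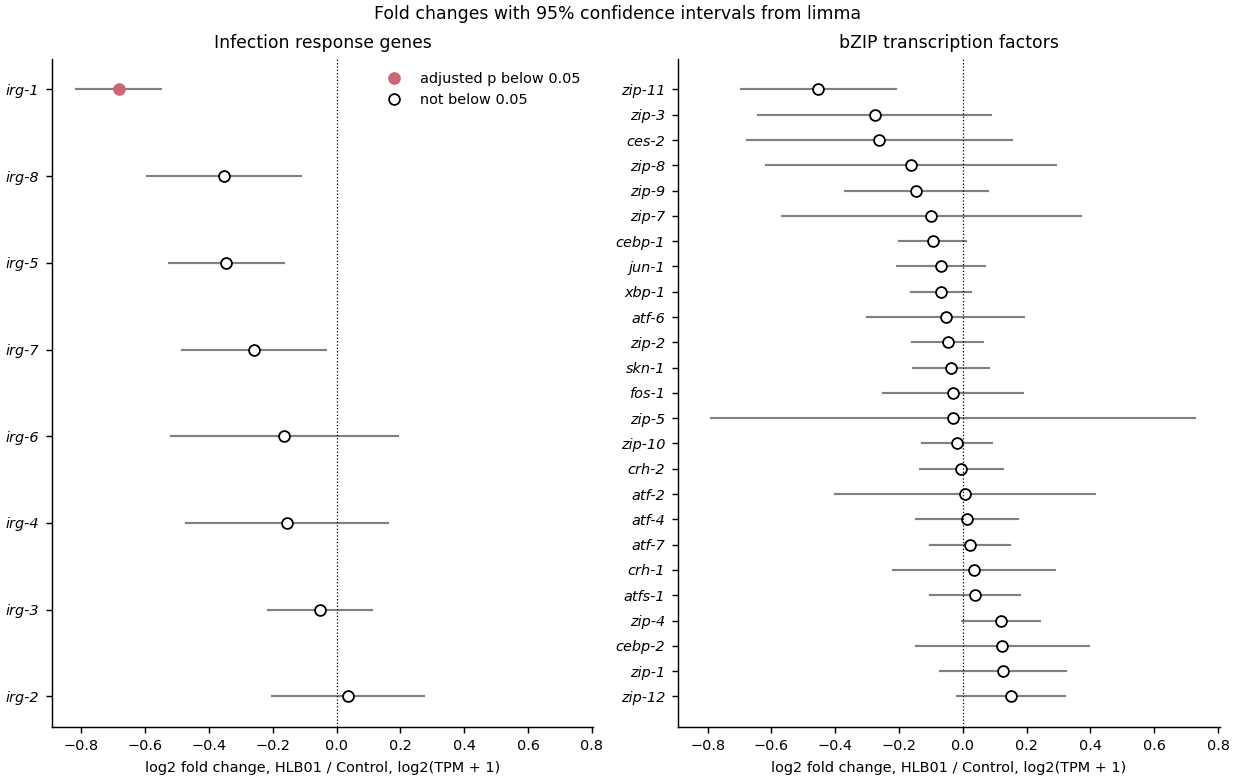
Log2 fold change (HLB01 over Control, on the log2(TPM + 1) scale) with its 95% confidence interval from limma for the 8 infection response genes and the 25 tested bZIP genes; the filled point passed an adjusted p of 0.05. The filled point is irg-1 at -0.68, and all 25 bZIP genes lie between -0.45 and 0.15.

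The genes of the KGB-1 and DLK-1 kinase modules and their regulators gave no call among 15 tested genes (7 positive, 8 negative, median -0.0027). The DLK-1 module controls cebp-1 mRNA in neurons. Over all tested genes 0.397% were called. Of the 15, 2 had an unadjusted p below 0.05 in limma, against 8.32% of all tested genes. The smallest p was that of mlk-1, which encodes a kinase above KGB-1, at 8.08, 7.39 and 8.50 TPM in Control and 5.61, 5.85 and 5.95 TPM in HLB01. Its groups did not overlap (log2 fold change -0.40 ± 0.09, SE; adjusted p in limma = 0.191). The phosphatase gene vhp-1, which restrains KGB-1, was at 49.6 ± 2.35 and 44.7 ± 2.61 TPM (SD, n = 3 each; limma adjusted p = 0.601). The log2 fold changes of kgb-1, pmk-3 and dlk-1 were -0.02, -0.03 and -0.04, with limma adjusted p-values of 0.974, 0.967 and 0.914.

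Genes of translation elongation and its control, the process whose block is known to switch on irg-1, gave no call among 14 tested (7 positive, 7 negative, median 0.0023). Of these 14, 0 had an unadjusted p below 0.05 in limma. The shares over all tested genes were 0.397% called and 8.32% with an unadjusted p below 0.05. The gene eef-2, whose protein is the target of exotoxin A, was at 1778.17, 1827.25 and 1668.47 TPM in Control and 1731.65, 1801.41 and 1611.99 TPM in HLB01 (limma adjusted p = 0.907). Replicate 3 was the lowest of each group, and the groups overlapped. The smallest p-values were those of eef-1A.2, an elongation factor gene (log2 fold change -0.12, adjusted p in limma = 0.615), and rsks-1, which encodes the S6 kinase (0.08, limma adjusted p = 0.756).

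Since irg-1 is an intestinal gene, markers of the intestine were read beside it. Of 12 listed markers, the name opt-2 matched no gene in the table. Of the 11 tested markers, 9 had a negative log2 fold change (median -0.07, range -0.26 to 0.18), and none was listed at 0 in any library. Their summed level was 3890 to 4303 TPM in the Control libraries and 3280 to 3767 TPM in the HLB01 libraries, with no overlap. Most of that sum came from 1 gene, asp-1, at 2898 to 3244 TPM in Control and 2375 to 2827 TPM in HLB01. The sum therefore mainly follows asp-1 and does not describe the 11 markers alike. None of the markers passed, against 0.397% of all tested genes, and 5 had an unadjusted p below 0.05 in limma, against 8.32%. Of these 5, the log2 fold change was negative for 4 and positive for vha-6, a proton pump subunit gene of the intestine, at 0.18 (85.2 ± 4.08 and 96.4 ± 4.20 TPM, SD, n = 3 each; adjusted p in limma = 0.376), with no overlap of its groups. The smallest p-values were those of act-5, the actin of intestinal microvilli (168 ± 4.65 and 147 ± 5.21 TPM, SD, n = 3 each; limma adjusted p = 0.188), and cpr-6, a protease gene (336 ± 27.3 and 280.2 ± 21.1 TPM; limma adjusted p = 0.346). The gene elt-2, the main intestinal GATA factor, had an adjusted p of 0.750 in limma (log2 fold change -0.13 ± 0.08, SE). The value of irg-1, -0.68, lay outside the range of the markers, and their part in it was not tested.

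Markers of neurons (10 tested) and of the germline (12 tested) gave no call either, with medians of 0.05 and 0.04. An unadjusted p below 0.05 in limma was found for 0 genes of either list. Over all tested genes 0.397% were called and 8.32% had an unadjusted p below 0.05. The smallest p-values were those of rab-3 and snb-1 in the first list (limma adjusted p = 0.632 and 0.793) and of cgh-1 and mex-3 in the second (0.612 and 0.673). Summed levels overlapped between the groups in both lists, at 433 to 467 TPM and 421 to 450 TPM for neurons in Control and HLB01, and at 3441 to 3644 TPM and 3486 to 3743 TPM for the germline. Most of the neuron sum came from snb-1, with means of 338 and 324 TPM in Control and HLB01, so it mainly follows that gene.

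The genes beside irg-1 on the chromosome had like means in both groups. The nearest coding gene on the right, T24A6.7, starts 591 bp beyond it on the same strand and had means of 13.4 TPM in Control and 13.7 TPM in HLB01, and str-227, 3786 bp to the left, had 0.207 and 0.160 TPM, below the filter. No annotated gene overlaps irg-1, irg-2, cebp-1 or cebp-2.

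Genes whose log2(TPM + 1) ran most like that of a member over the 6 libraries were found by Pearson's r, given as a description. With 6 libraries high values are common: between 133 and 222 genes passed 0.9 for each member, and for irg-1 the r mostly restates the gap between the groups. Nearest to irg-1 were pgp-9, a gene of the P-glycoprotein transporters (r = 0.997; 8.95 TPM in Control and 5.80 TPM in HLB01; adjusted p in limma = 0.0656), and ilys-5, a lysozyme gene (r = 0.996; 69.7 and 36.3 TPM, limma adjusted p = 0.00505). Nearest to irg-2 were trx-3, a thioredoxin gene (r = 0.997), and sek-3 (r = 0.992). The genes rpl-7A and src-2 were nearest to zip-2 (both r = 0.990), ZK470.2 and pab-2 to cebp-1 (r = 0.994 and 0.991), and C29E4.11 and F22H10.2 to cebp-2 (r = 0.997 and 0.993).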

How the data were processed

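The deposited table lists 46778 genes as TPM, with a column for each library. The authors' tools were fastp, HISAT and RSEM on build WBcel235, per the submitters' processing notes, and their versions, filters and strand setting were not given there. That the deposited unit is TPM was inferred from the nearly equal column sums. As shares of a fixed sum, TPM values move together when abundant transcripts change, and they keep no depth. Symbols were found for 43818 identifiers, and coordinates come from Ensembl release 115 of the same build.

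Groups follow the sample titles. A gene was tested if 3 or more libraries had 1 TPM or more. The test was limma 3.58.1 (R 4.3.3) on log2(TPM + 1), two-sided and with a trend of variance on mean. The Benjamini-Hochberg adjustment ran over all 12590 tested genes, and the threshold was 0.05. The members, gene lists and named genes were chosen with earlier results of these data known. Named genes are the 5 members, irg-1 to irg-8, fixed genes of each list, the 2 smallest p-values of a list with no call, and the 2 genes most correlated with each member. The genes elt-2, vha-6 and asp-1, the neighbours and the overlaps were added after the values were seen. No list was given a set test. On simulated data for this comparison (12590 genes, 200 changed in each of 20 simulations), limma recovered 40.0% of log2 changes of 0.4, 76.8% of 0.8 and 97.2% of 1.6, with 5.49% of calls false. The simulated errors were normal, independent and without a shift of a whole library, and more genes were changed than the 50 called here. These rates may therefore be optimistic for the real libraries. Alternatives covered pseudocounts, filters, trend, array weights, scaling, the replicate number as a block and leaving out each library.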

Additional observations from a re-analysis of the deposited data

How the results depend on the processing

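The fold change of irg-1 was negative and past the threshold under all 14 alternatives: -0.71 to -0.65 (limma adjusted p = 0.0139 to 0.0457) with any 1 library left out, and -0.70 to -0.61 (0.00395 to 0.0236) under the other 8. None of the other 4 members passed under any of them. Only irg-2 changed sign, with values of -0.02 to 0.12 when a library was left out. The fold changes of zip-2, cebp-1 and cebp-2 ran from -0.08 to -0.01, -0.12 to -0.07 and 0.04 to 0.25 in the same fits.

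The count of changed genes over the whole table, 50, was 22 with no filter on low values, 27 without the mean-variance trend and 80 with array weights. It was 17 to 31 with 1 library left out: 25, 17 and 23 without Control replicates 1, 2 and 3, and 25, 31 and 23 without HLB01 replicates 1, 2 and 3. Scaling to the median ratio gave 47 and moved the median fold change of all genes by less than 0.1. Replicate numbers gave no clear sign of pairing: same-numbered deviations correlated at -0.013, 0.038 and 0.127, and not every library correlated best with its own number. Such correlations over 3 libraries a group cannot exclude pairing. With the replicate block, the fit gave 48 genes and an adjusted p of 0.0154 for irg-1 (log2 fold change -0.68). Depth is unknown, so counting error at low TPM, as for irg-4 and irg-6, cannot be given.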
